A study of Mus musculus with 4 samples.

Results

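A group of 9 genes that bring long-chain fatty acids into the cell and activate them was read in cultured mouse hepatocytes with and without Drp1, the protein that divides mitochondria. They are the scavenger receptor gene Cd36, the fatty acid transport protein genes Slc27a1, Slc27a2, Slc27a4 and Slc27a5, and the long-chain acyl-CoA synthetase genes Acsl1, Acsl3, Acsl4 and Acsl5. They were chosen by name, as every non-control probe that the array annotation assigns to one of these symbols, and are 9 of the 20615 gene or transcript names that were well above background on at least 1 array, of 37072 names on the array. Primary hepatocytes of both genotypes, control and Drp1LiKO, were measured without treatment and with palmitate at 200 μM, on 4 single-colour arrays with 1 array a group. Drp1LiKO cells came from mice that carry Alb-Cre and floxed alleles of Dnm1l, the gene that encodes Drp1, so that the deletion is driven by the albumin promoter of hepatocytes. The study's methods describe the controls as floxed littermates. The labels call the source of both control arrays wild-type, whereas the title of the palmitate control array names it Drp1flox. All mice were on the C57BL/6 strain and, per the methods, male, and no age was found for them in the labels. The cells were released with collagenase, pelleted at low speed, plated on collagen in serum-containing medium with insulin, and harvested 24 h after seeding. Palmitate, a saturated fatty acid, was given with albumin, for a time that the sources used here do not state.

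Long-chain fatty acids cross the plasma membrane partly with the help of CD36, a scavenger receptor that binds them, and of the fatty acid transport proteins of the Slc27a family. Inside the cell, acyl-CoA synthetases join them to coenzyme A, which traps them and readies them for triglyceride synthesis, membrane lipids or oxidation. The Slc27a proteins carry such synthetase activity themselves. In liver, Acsl1 and Acsl5 are the main long-chain synthetases, Slc27a2 and Slc27a5 the main transport proteins, and hepatocytes of lean mice hold little Cd36, which is abundant in macrophages, capillary endothelium, adipocytes and muscle.

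Levels are given as log2 intensity minus the 75th percentile of the array, so that 0 is the signal of a probe at that percentile. The percentile lay at intensities from 424 to 542, and from 44.7% to 51.1% of probes were well above background by the scanner's flag. The lowest level among probes well above background, here called the floor, lay between −4.94 and −4.17. The Dnm1l probe that stands for the deleted gene (chr16:16312363-16312422, mm9) was lower in Drp1LiKO by −1.35 untreated and by −1.42 with palmitate, on the side its labels call for, while a second Dnm1l probe near the floor gave −0.35 untreated and was flagged on neither palmitate array. The hepatocyte marker list was well above background on every array for all 11 of its measured genes. Each group is 1 array, so no difference between 2 arrays has a replicate check, and none of these carries a p-value. The repeat spots of a probe within an array had a median SD of about 0.04 for probes above level 0 and of about 0.11 between −4 and 0 on the control array. Different probes of a gene differed more, with a median SD of their log2 differences of 0.19 in the untreated genotype comparison and 0.12 with palmitate. The arrays come from 2 slides, 1 with both untreated and 1 with both palmitate samples. Palmitate and slide thus cannot be told apart, but the genotypes share each slide. The label of the untreated control array says that its raw data also serve a sample of another series.

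The 9 genes were read by 17 probes, of which 14 were well above background on all 4 arrays. Cd36 has a single probe, which was well above background on both Drp1LiKO arrays only. The other 2 probes, 1 of Acsl1 and 1 of Acsl5, were well above background on none, and the latter lies on the strand opposite to its gene. Every probe is 60 bases long. Part of the Cd36 and Slc27a1 probes and of the brightest Acsl4 probe is printed here. The stretches are the first 30 bases of each, in the sense of the transcript as the array annotation places them (mm9). The probe of Cd36 lies at chr5:17288600-17288659 on the minus strand, that of Slc27a1 at chr8:74110256-74110315 on the plus strand, and the brightest of Acsl4 at chrX:138755198-138755257 on the minus strand. The Acsl4 stretch also occurs as bases 17 to 46 of another Acsl4 probe, and these 2 probes share 44 bases, so they are not separate readings of the gene.
Cd36 probe: aagaatgaaaaatgaacaattcacatgtga
Slc27a1 probe: ggtacccacctccctttcctattgtgcctt
Acsl4 probe: atctcaaagacattgagcgaatgtatgggg

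Cd36 and Slc27a1 were higher in Drp1LiKO hepatocytes in both conditions, and the other members differed less than 2-fold. The difference of Acsl4 was smaller and depended on the probe. None of the members fell by 2-fold or more in Drp1LiKO cells. With palmitate none of the members measured changed 2-fold, beside 5.7% of all genes in control and 7.04% in Drp1LiKO cells. Cd36 was flagged on neither control array and has no palmitate difference there.

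**Figure D1:**
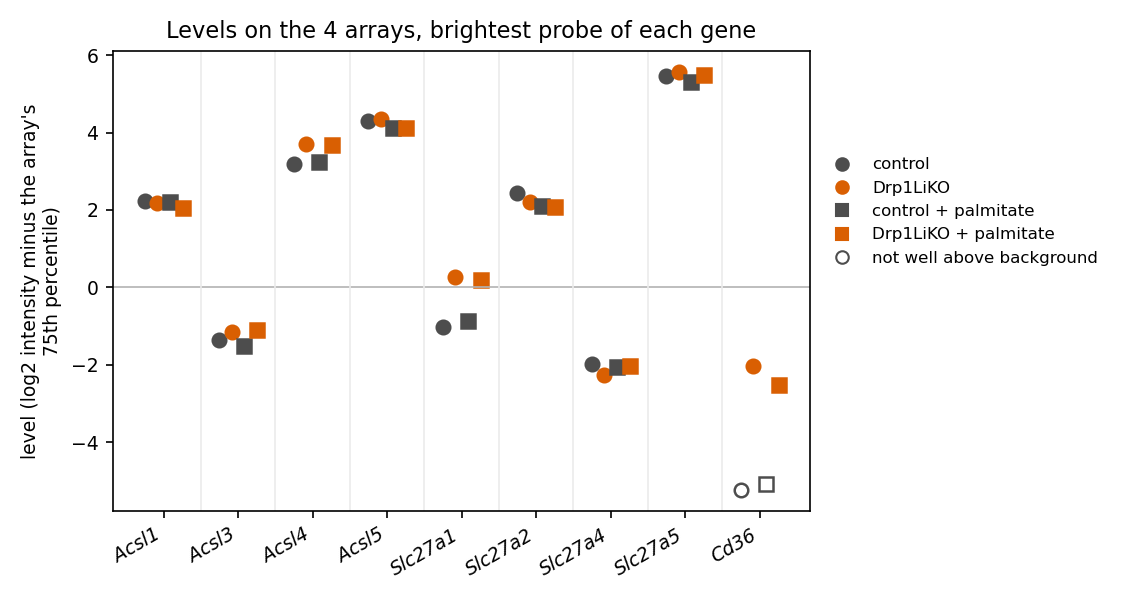
Level of each gene on each of the 4 arrays, as log2 intensity minus the array's 75th percentile, for the brightest probe of the gene. Levels of different genes come from different probes and are not comparable with each other. Grey points are control and orange points Drp1LiKO arrays, circles untreated and squares palmitate, and open symbols were not well above background. The 2 Drp1LiKO arrays lie above the 2 control arrays for Slc27a1 (0.26 and 0.20 against −1.02 and −0.88) and Cd36, whereas the arrays lie close together for Acsl1, Acsl5 and Slc27a5.

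In untreated cells Cd36 read −5.24 in control and −2.02 in Drp1LiKO, and with palmitate −5.09 in control and −2.52 in Drp1LiKO. Both control arrays were not well above background, with intensities of 12.9 and 12.4, against 134 and 81.4 in Drp1LiKO. Cd36 encodes the fatty acid receptor of the group, and the control arrays thus give only an upper limit for it. Set against the floor of the control array, untreated Drp1LiKO cells held at least 6.56-fold more Cd36 signal. With palmitate it was at least 3.13-fold higher. The measured values themselves differed by 3.21 and 2.57 on the log2 scale. Under normexp background correction, which raises dim signals by an offset, they differed by 1.22 and 0.80. The change with palmitate was −0.50 in Drp1LiKO cells, the lowest of the 9 genes and number 673 from the lowest of 17853 genes measured on both of those arrays, and no fold is given in control cells. In the same comparison 6 of 12 macrophage and 4 of 12 endothelial markers were at least 2-fold lower, with medians of −0.67 each. The macrophage marker Marco was higher, by 2.77. Among markers flagged on both arrays, 5 of 11 and 2 of 9 were lower, with medians of −0.15 and −0.65. Of the stellate markers 1 of 10 was lower, with a median of −0.23, and of all genes 614 of 19747 were. The part of these cells in the Cd36 value was not tested.

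Slc27a1 encodes the fatty acid transport protein best known from muscle and adipose tissue. Untreated control cells read −1.02 and untreated Drp1LiKO cells 0.26, and the palmitate arrays read −0.88 in control and 0.20 in Drp1LiKO. Both Drp1LiKO values lie above both control values. The log2 difference between the genotypes was 1.28 in untreated cells, or 2.43-fold, and 1.08 with palmitate, or 2.11-fold. Among genes measured on both arrays of a comparison, Slc27a1 stood at number 492 from the highest of 17652 in untreated cells and at number 451 of 16784 with palmitate. It has a single probe on this array, so no second reading of the gene was at hand.

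The transport proteins known from hepatocytes did not follow Slc27a1. Slc27a2 encodes a very long-chain synthetase of peroxisomes and the endoplasmic reticulum that also takes part in uptake. It read 2.44, 2.20, 2.12 and 2.09 on the control, Drp1LiKO, control palmitate and Drp1LiKO palmitate arrays (chr2:126413890-126413949), the untreated control array being the highest. Its genotype differences were −0.24 untreated and −0.03 with palmitate. Slc27a5 encodes a bile acid-CoA ligase that also activates fatty acids and is found mainly in liver. It read 5.45, 5.58, 5.31 and 5.48 in the same order (chr7:13573701-13573760), which gives 0.12 and 0.17 between the genotypes. Slc27a4 encodes the transport protein best known for uptake in the intestine and for the skin barrier. It read −1.98, −2.28, −2.05 and −2.03 (chr2:29672983-29673042), with the untreated Drp1LiKO array lowest, and its genotype differences were −0.30 and 0.02. A second Slc27a4 probe, which lies nearby, gave −0.32 and 0.00.

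Among the synthetases, Acsl4 differed most in untreated cells. Acsl4 encodes the synthetase that prefers arachidonic acid and other polyunsaturated fatty acids and is a known determinant of ferroptosis. Its brightest probe read 3.18 in control and 3.70 in Drp1LiKO cells without palmitate, and 3.25 and 3.67 with it. Both Drp1LiKO arrays lie above both control arrays, by 1.43-fold untreated and 1.33-fold with palmitate. The remaining probe of Acsl4, which does not overlap these and lies at chrX:138752602-138752661, read 2.90, 2.97, 2.92 and 3.08. On it the genotypes differed by 0.07 and 0.17, smaller than on both overlapping probes.

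Acsl3 encodes a synthetase of the endoplasmic reticulum and of lipid droplets, where it serves droplet growth. Its brighter probe (chr1:78703500-78703559) read −1.36, −1.14, −1.51 and −1.11 in the order control, Drp1LiKO, control palmitate and Drp1LiKO palmitate, and the Drp1LiKO values are the higher pair. The genotype differences were 0.22 untreated and 0.40 with palmitate. A second, dimmer Acsl3 probe gave −0.08 and 0.29, so only the difference with palmitate has the same sign on both.

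Acsl1 and Acsl5, the synthetases that hepatocytes are best known for, differed little. Acsl1 read 2.24, 2.18, 2.21 and 2.05 on the 4 arrays (chr8:47621232-47621291), with genotype differences of −0.06 and −0.17, and its second probe gave −0.09 and −0.06. Acsl5, which is also induced by feeding and insulin, read 4.31, 4.34, 4.11 and 4.11 (chr19:55368743-55369331), a difference of 0.03 untreated and 0.00 with palmitate. Another Acsl5 probe downstream, at chr19:55372112-55372171, gave 0.04 untreated and −0.43 with palmitate.

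**Figure D2:**
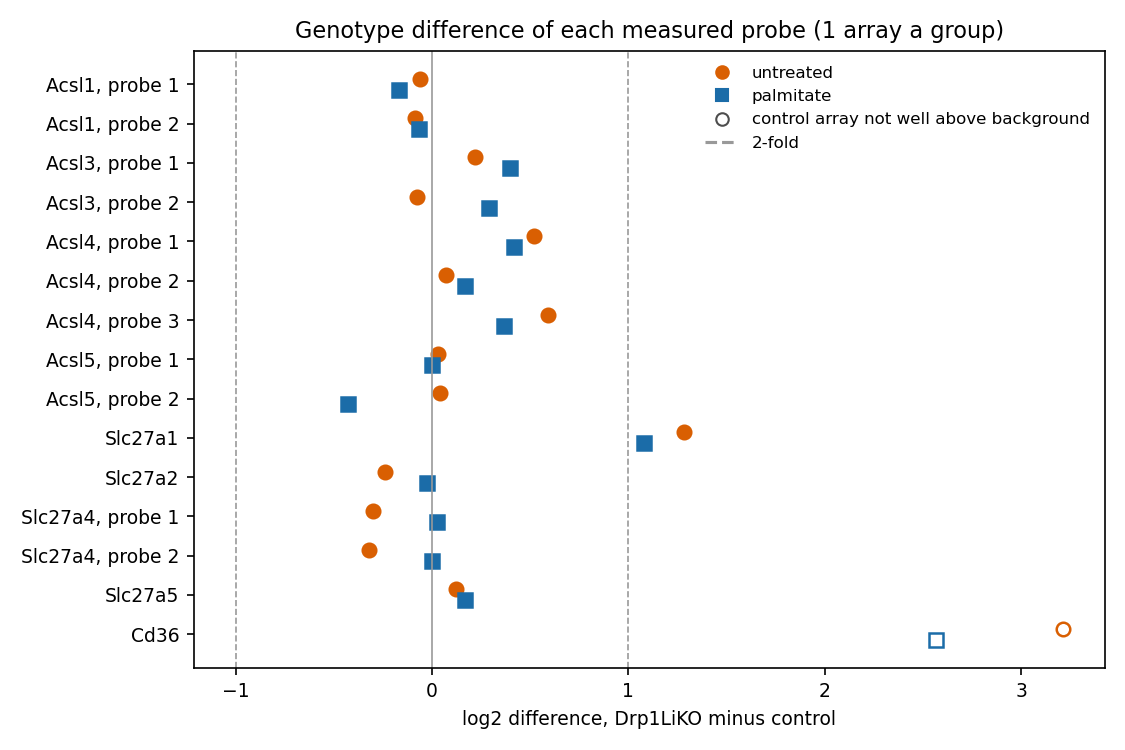
Log2 difference between Drp1LiKO and control for each of the 15 member probes that were well above background on at least 1 array, untreated (orange circles) and with palmitate (blue squares). Probes of a gene are numbered with the brightest first, dashed lines mark 2-fold, and open symbols had a control array that was not well above background, so that their measured difference is not a fold. Slc27a1 and Cd36 lie beyond the 2-fold line in both conditions, and Acsl4 probes 1 and 3, which overlap, lie between 0.37 and 0.59.

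Counted over the group, 2 of 9 genes reached 2-fold higher in Drp1LiKO cells without palmitate, beside 8.84% of 19875 genes measured, and 0 of 9 were at least 2-fold lower, beside 5.58%. With palmitate, 2 of 9 were higher, beside 7.26% of 18890 genes, and 0 of 9 lower, beside 4.26%. Cd36 and Slc27a1 were the 2 genes each time. Cd36 passed the filter through the Drp1LiKO arrays alone. Among genes flagged on both arrays, 1 of 8 members, Slc27a1, was higher in each condition. Beside it stood 4.46% of 17652 such genes untreated and 3.09% of 16784 with palmitate. The shares given first take dim values as measured. With such values raised to the floor, chosen after seeing the data, the 2 genes stood beside 6.11% and 4.28% of all genes. The count with palmitate was 0 under normexp background correction, where Slc27a1 differed by 0.90 and Cd36 by 0.80, and 1 with arrays centred on their medians, where Slc27a1 differed by 0.93. The median difference of the 9 genes was 0.12 untreated and 0.17 with palmitate, beside −0.02 and −0.03 over all genes measured. The values of these small medians depend on the scaling, since that centring gave −0.06 and 0.02 beside −0.20 and −0.17. Under both scalings the median of the members lay 0.14 untreated and 0.20 with palmitate above that of all genes. Among all genes that differed 2-fold in untreated cells, 61.3% were higher in Drp1LiKO, and 49.9% with arrays centred on their medians.

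The genotype term was also fitted over all 4 arrays with limma, in a model that takes the genotype difference to be equal with and without palmitate and leaves 1 residual degree of freedom. That residual is the change of the genotype difference with palmitate, moderated over genes. The SE and p-values thus do not measure spread between replicate cultures or mice. It called 0 of the 9 genes at an adjusted p under 0.05, as it called 0.0% of 20615 genes. An unadjusted p under 0.05 was found for 5363 of all genes, Slc27a1 and Acsl4 among them. The estimate for Slc27a1 was 1.18 ± 0.10 (SE; limma, adjusted p = 0.121) and for Acsl4 0.47 ± 0.08 (adjusted p = 0.15). The Acsl4 estimate comes from its brightest probe, and its non-overlapping probe differed less between the genotypes. No estimate or call is given for Cd36 in this paragraph. Both of its control values lie below the floor, and it entered the fit through the Drp1LiKO arrays alone. With a variance trend on intensity, limma called Slc27a1 and Acsl4, but also 26.0% of all genes. With genes flagged on all 4 arrays only it called Slc27a1 and Acsl4 beside 15.6% of those genes, and under normexp Slc27a1 beside 7.36%. Acsl3 came next, at 0.31 ± 0.09 (limma, adjusted p = 0.22), and the other members had estimates between −0.14 and 0.14.

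For these genes the palmitate arrays read close to the untreated arrays of the same genotype. In control cells 0 of the 8 genes measured differed 2-fold between palmitate and untreated arrays, beside 5.7% of 18772 genes, with values from −0.33 for Slc27a2 to 0.14 for Slc27a1. In Drp1LiKO cells 0 of 9 did, beside 7.04% of 19747 genes, with values from −0.50 for Cd36 to 0.25 for Slc27a4. The medians were −0.11 and −0.10, beside 0.01 and 0.00 over all genes, and 2 genes lay above 0 in each genotype. The Slc27a2 value in control cells was number 793 from the lowest of 16829 genes measured on both arrays. The palmitate difference of Acsl5 was −0.20 in control and −0.23 in Drp1LiKO cells, whereas that of Acsl1 was −0.02 and −0.13. For Acsl4 it was 0.07 and −0.03 and for Slc27a1 0.14 and −0.06, so both genes stayed near the untreated level of their genotype.

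The difference between the genotypes was set side by side in both conditions for each gene. It was smaller with palmitate than without by 0.20 for Slc27a1, 0.10 for Acsl4 and, on the measured values, 0.65 for Cd36, and larger by 0.18 for Acsl3. The negative differences of Slc27a2 and Slc27a4 in untreated cells, −0.24 and −0.30, lay near 0 with palmitate, at −0.03 and 0.02. Over the 16611 genes flagged as above background on every array, the median size of this change was 0.14, and 1.79% of them reached 2-fold. None of the 8 members among them reached it. With 1 array a group the change has no test.

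Markers of macrophages, endothelium and stellate cells were higher on the arrays on which Cd36 and Slc27a1 were higher, and those of bile duct cells and adipocytes were not. Of the macrophage markers measured, 11 of 12 reached 2-fold higher in Drp1LiKO cells without palmitate and 10 of 11 with it. Of all genes measured, 8.84% and 7.26% did. Of the endothelial markers 8 of 12 and 6 of 10 did, with Tek lower in the palmitate comparison, and of the stellate cell markers 9 of 10 and 8 of 9. Many of these genes were measured through the Drp1LiKO arrays alone. Among those flagged on both arrays, the counts were 9 of 10 and 6 of 7 for macrophages, 6 of 9 and 5 of 7 for endothelium, and 3 of 4 and 2 of 3 for stellate cells. Of all genes flagged on both arrays, 4.46% and 3.09% were at least 2-fold higher. The summed level of the macrophage list was 3.37 and 3.70 on the control arrays and 5.29 and 5.22 on the Drp1LiKO arrays. The endothelial sum went from 1.08 and 1.14 to 2.61 and 2.09, and the stellate sum from 0.13 and 0.33 to 3.49 and 3.75. Such sums weigh the brightest genes most, as with Dcn of the stellate list, at 2.94 and 3.49 on the Drp1LiKO arrays. Of the bile duct markers 1 of 5 and 0 of 4 were higher, with sums of 3.36 and 2.75 in control and 3.14 and 2.48 in Drp1LiKO. The higher one, Krt7, was flagged on the Drp1LiKO array alone. Few neutrophil and lymphocyte markers were measured, and 1 of 1 and 2 of 2 of the former and 1 of 2 and 2 of 3 of the latter were higher. All of those higher, except S100a8 with palmitate, were flagged on the Drp1LiKO array alone. Among markers flagged on both arrays, 1 of 1 neutrophil marker was higher with palmitate, and 0 of 1 lymphocyte marker in each condition. No neutrophil marker was flagged on both untreated arrays.

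The hepatocyte sum, which its brightest genes carry, lay between 10.4 and 10.5 on all arrays. Of the 11 hepatocyte markers 3 were at least 2-fold higher in each condition and none lower, namely Ahsg (1.64 and 1.76) and Tdo2 (1.07 and 1.16) in both, Ass1 without and Cps1 with palmitate. On the untreated control array 10 of 12 macrophage, 9 of 12 endothelial and 4 of 10 stellate markers were well above background. Those that were not include Clec4f and Vsig4 of Kupffer cells, Lyve1 of sinusoidal endothelium, and Pdgfrb, Lrat and Col3a1 of stellate cells. Kdr, the VEGF receptor of endothelium, went from −2.81 and −2.80 on the control arrays to −0.38 and −1.05 in Drp1LiKO, and Cd68 of macrophages from 2.27 and 2.44 to 4.28 and 4.14. The adipocyte list, of cells that also hold much Cd36 and Slc27a1, was not higher in Drp1LiKO in any of its 3 measured genes by 2-fold, with medians of −0.36 and −0.06, and Adipoq and Plin1 stayed below the background flag throughout. In bulk samples more cells of a type and more RNA per cell cannot be told apart. The part of these cells in the differences of Cd36, Slc27a1 and Acsl4 was not tested.

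**Figure D3:**
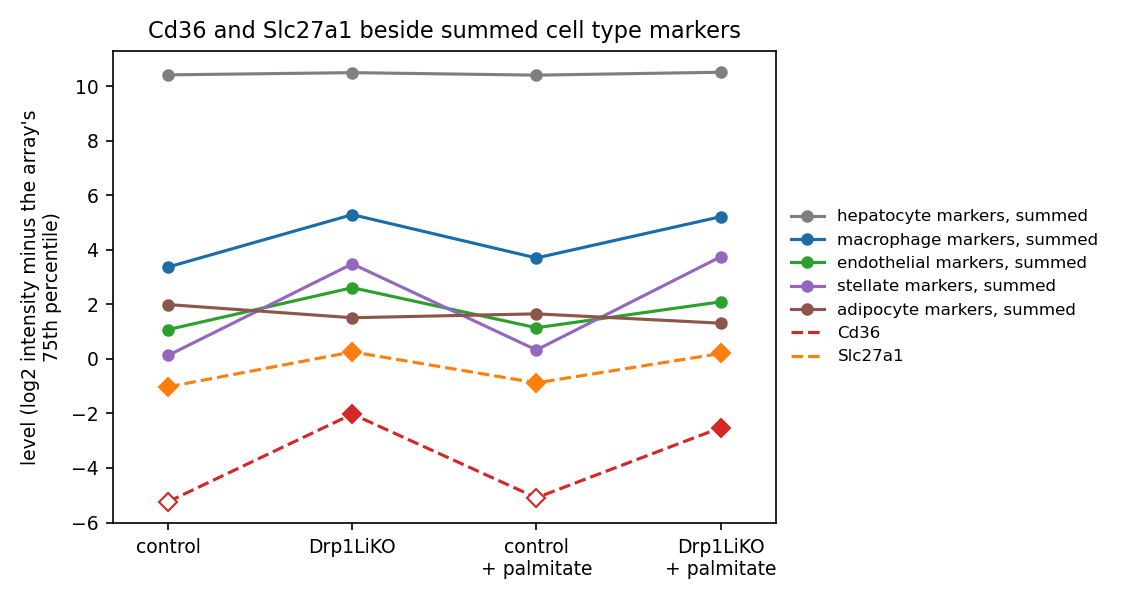
Levels of Cd36 and Slc27a1 (diamonds, dashed lines; open where not well above background) beside the summed levels of 5 marker lists (circles, solid lines) on the 4 arrays, as log2 intensity minus the array's 75th percentile. Lines join arrays of different groups to guide the eye. The macrophage, endothelial and stellate sums are higher on both Drp1LiKO arrays, as are both genes, whereas the hepatocyte sum stays between 10.4 and 10.5.

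The other genes that handle fatty acids and acyl-CoA were read from 7 lists, of which 69 of 83 names were measured. Some genes are listed under both an older and a newer symbol. Without palmitate, 10 of 67 were 2-fold or more above control in Drp1LiKO and 4 as far below, beside 8.84% and 5.58% of all genes. Their median was 0.08 beside the −0.02 of all genes. With palmitate 9 of 66 were higher and 1 lower, beside 7.26% and 4.26%, with a median of 0.02 beside −0.03. The counts of the single lists below stand beside these same shares. Between palmitate and untreated arrays, 1 was higher and 1 lower of 64 in control cells, and 2 were higher and 3 lower of 67 in Drp1LiKO cells. Of all genes, 5.7% in control and 7.04% in Drp1LiKO cells differed 2-fold either way. These counts use dim values as measured. With values not well above background raised to the floor, a setting chosen after seeing the data, 10 were higher and 2 lower without palmitate. All genes had 6.11% higher and 4.58% lower in that setting. With palmitate 6 were higher and 1 lower, beside 4.28% and 3.46% of all genes.

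Of the other acyl-CoA synthetases, 0 of 9 differed 2-fold between the genotypes in untreated cells and 2 of 10 with palmitate. Slc27a3, another member of the transport protein family, read −1.21 and −1.13 on the control arrays and −2.04 and −2.15 on the Drp1LiKO arrays, so that it lay lower in Drp1LiKO where Slc27a1 lay higher. The other, Acss3, was flagged on the Drp1LiKO palmitate array alone, at a level below the control floor, and is named after its values were seen. Aacs and Acsf3, the brightest of the list, differed by 0.40 and −0.12 in untreated cells.

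Of the fatty acid and acyl-CoA binding proteins, 2 of 12 were higher in each condition as measured and none was lower. Against the floor, 2 of 12 were without palmitate and 1 with it. Fabp3, the heart-type binding protein, read −5.27 and −4.44 on the control arrays, where it was not well above background like Cd36, and −2.19 and −3.24 on the Drp1LiKO arrays. With palmitate this is 0.93 above the floor, under 2-fold, and another Fabp3 probe gave 0.23. The other was the brain-type Fabp7, named after its values were seen. Dbi and Fabp5 differed by −0.16 and −0.31 in untreated cells. Of the genes for lipid uptake at the cell surface, 2 of 9 were higher and 1 lower in untreated Drp1LiKO cells, and 0 of 8 differed 2-fold with palmitate. Lpl, the lipase that frees fatty acids from lipoproteins, differed by 2.09 untreated and 0.81 with palmitate, and Gpihbp1, which holds that lipase on capillary endothelium, by 1.46 and 0.44. The lower one, Cav1, was flagged on the control array alone, lay under 2-fold from the Drp1LiKO floor, and is named after its values were seen.

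**Figure D4:**
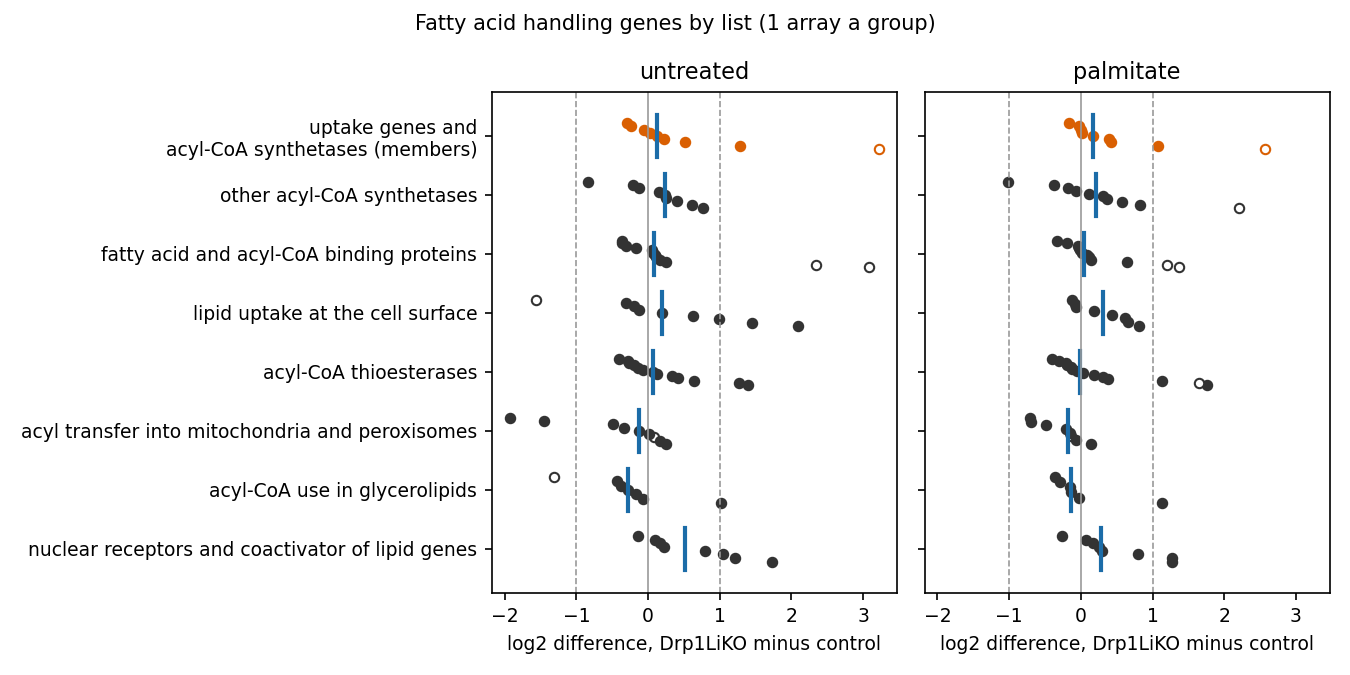
Log2 difference between Drp1LiKO and control for the 9 genes (orange) and for the measured genes of 7 lists of fatty acid handling (black), untreated on the left and with palmitate on the right. Each point is a gene, blue bars are list medians, dashed lines mark 2-fold, and open points were well above background on 1 of the 2 arrays only. The bulk of each list lies within the 2-fold lines, and most open points lie beyond them.

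The genes whose 4 levels, after centring each gene on its own mean, lay closest to those of Slc27a1 were Nlrc5, Lamb1 and Hemt1, among 13697 genes with a symbol and a signal on all 4 arrays. Their distances from Slc27a1 were 0.04, 0.05 and 0.06 log2 units. Nlrc5, a regulator of MHC class I genes, differed between the genotypes by 1.27 and 1.03, the laminin gene Lamb1 by 1.34 and 1.03, and Hemt1 by 1.23 and 1.13. These likenesses rest on 4 arrays and are a description.

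The promoters of the 2 genes that were higher are shown because Cd36 is a known target of PPAR-family receptors, which bind repeats of AGGTCA together with RXR. RefSeq promoters were matched for 8 of the 9 genes (GRCm38.p6, a later build than that of the probes). The search took the letters AGGTCA on both strands in the 250 bases before each start. They occurred in 1 promoter of Cd36 and 1 of Slc27a2, and in 14.0% of 32851 promoters of that length. Slc27a1 has 3 listed starts, none of which holds the letters in this window, and its promoters have a GC content from 58.4% to 66.4%, against 43.2% for Cd36. The Cd36 promoter at chr5:17835897-17836146 on the minus strand holds 1 match, 228 bases before the start, in capitals and as its reverse complement. The first of the Slc27a1 promoters, at chr8:71568621-71568870 on the plus strand, is set beside it.
Cd36 promoter: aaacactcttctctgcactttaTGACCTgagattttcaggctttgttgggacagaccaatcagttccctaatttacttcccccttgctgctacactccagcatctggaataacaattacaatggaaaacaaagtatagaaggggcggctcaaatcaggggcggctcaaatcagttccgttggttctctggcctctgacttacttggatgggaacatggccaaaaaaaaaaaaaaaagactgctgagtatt
Slc27a1 promoter: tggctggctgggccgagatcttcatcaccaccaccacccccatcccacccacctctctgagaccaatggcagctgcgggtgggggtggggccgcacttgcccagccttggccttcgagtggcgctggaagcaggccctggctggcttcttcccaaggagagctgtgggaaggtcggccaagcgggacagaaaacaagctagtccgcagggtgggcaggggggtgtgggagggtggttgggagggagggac
A match to these letters is a description of the sequence and not a measured site.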

How the data were processed

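RNA of 4 cultures was labelled with 1 dye and hybridised to 60-base oligonucleotide arrays by the authors. The deposited scanner tables, 1 per array, hold background-subtracted intensity values on a linear scale and flags for outlier, saturated and well-above-background spots. The file headers name Agilent Feature Extraction 10.7.1.1 and the labels 9.5.1.1. The labels and the methods also name different RNA kits. No normalization between arrays is given in the sources used here. The authors' table of processed intensity values held the same sorted values in each of its 4 columns, within 0.1%, as quantile normalization gives, with a column median of 18.1, and was used as an alternative. Its rows were matched to the scanner tables by probe name.

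Control and outlier spots were left out, 0 spots were saturated, repeat spots were averaged, and log2 of the processed signal was set relative to the array's own 75th percentile. A gene was represented by its brightest probe among those well above background on at least 1 array. It counted as changed at 2-fold or more if either array of the pair carried the flag. Counts use the measured values. The folds printed for Cd36, whose control arrays were dim, were set against the higher of the floor and the dim value, and an alternative chosen after seeing the data raised all dim values to the floor. For the genotype term, lmFit and eBayes of limma (version 3.58.1, under R 4.3.3) gave two-sided p-values, adjusted by Benjamini-Hochberg over all genes, and the script was tested on simulated data. Alternatives were normexp background correction (offset 50), median scaling, the authors' table, filters on dim probes, the mean of all probes, 1.5-fold, and limma with a variance trend. Columns of unmapped samples numbered 0.

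All 9 members were named with every probe, Dnm1l as a check, and from each pathway list the genes at least 2-fold changed with both arrays well above background, or, where fewer than 2 did so, its 2 brightest as well. Like genes of a member were sought where its levels spanned at least 1 log2 unit on 4 measured arrays, which held for Slc27a1. The members, the lists and the rules were chosen with earlier results of these data known, so no pattern here is independent support for those results. The groups were taken from the labels. With 4 arrays in all, precision is low throughout.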

Additional observations from a re-analysis of the deposited data

How the results depend on the processing

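Of 208 alternative values of single members, 205 kept their side of 2-fold and 3 fell under it. The sign was opposite to the main value in 10, all of them main values of 0.12 or less in size, in Acsl3, Acsl4, Acsl5, Slc27a4 and Slc27a5, and no difference of 2-fold or more changed sign. The 3 were the palmitate genotype differences of Slc27a1 (0.90 under normexp and 0.93 under median scaling) and Cd36 (0.80 under normexp, which compresses dim probes by its offset). The number of members changed in untreated cells was 1 of 8 where both arrays had to carry the background flag, since Cd36 then drops out. With palmitate it was 1 of 8 under that filter, 0 under normexp and 1 under median scaling, where the median of the members was 0.024. Under that filter 4.46% of all genes were higher untreated and 3.09% with palmitate. Median scaling moves the median of all genes from −0.02 to −0.20 untreated and from −0.03 to −0.17 with palmitate. The genotype term of limma called 3 members (26.0% of all genes) with a variance trend and 2 (7.36%) under normexp. Both counts include Cd36, which entered through the Drp1LiKO arrays alone, so its call is no support. When only genes flagged on all 4 arrays entered, limma called 2 (15.6%). Over all genes, the 2-fold counts of 2867, 2176, 1070 and 1390 (both genotype comparisons, then palmitate in control and in Drp1LiKO) were 1051, 688, 313 and 411 under normexp. They were 1378, 933, 186 and 432 when both arrays had to be flagged, 4680, 3936, 2888 and 3531 with no filter and 5297, 3989, 1987 and 2792 at 1.5-fold. With values raised to the floor, chosen after seeing the data, the number of members changed was 2, 2, 0 and 0 in these comparisons, and over all genes 429 were higher and 226 lower with palmitate in control and 587 and 313 in Drp1LiKO. The labels give no replicate numbers to pair, the additive limma model already compares the genotypes within each slide, and with 1 array a group no replicate could be left out. With 4 arrays the precision of each difference is low.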

Other observations

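Genes that act on acyl-CoA once it is made were read from the remaining lists, as values with no explanation. Beside their genotype counts, 8.84% of all genes were higher and 5.58% lower without palmitate. With palmitate these shares were 7.26% and 4.26%. Of the acyl-CoA thioesterases, which undo the work of the synthetases, 2 of 13 were at least 2-fold above control in Drp1LiKO cells without palmitate and 3 of 14 with it, and none was lower. Acot1, the cytosolic thioesterase induced by fasting, read −2.29 and −2.26 on the control arrays and −0.89 and −0.50 on the Drp1LiKO arrays. The peroxisomal Acot5 differed by 1.27 and 1.14, and Acot3, named after its values were seen, was flagged on the Drp1LiKO palmitate array alone, below the control floor, so that against the floor 2 of 14 were higher. Near-identical Acot genes may share signal on these probes. Of the glycerolipid genes, Dgat2, which makes triglyceride, was the 1 higher of 7 and of 6, with 3.58 and 3.53 on the control arrays against 4.60 and 4.66 on the Drp1LiKO arrays. Agpat6 and Lpcat3 differed by −0.37 and −0.17 in untreated cells, and Gpat2, named after its values were seen, was the 1 lower of 7 as measured, was flagged on the control array alone and lay under 2-fold from the Drp1LiKO floor.

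Of the genes that pass acyl groups into mitochondria and peroxisomes, 2 of 9 were lower in untreated Drp1LiKO cells and 0 of 8 differed 2-fold with palmitate. Slc25a20, the carnitine-acylcarnitine carrier, read −0.77 in control and −2.69 in Drp1LiKO cells without palmitate, and −0.67 and −0.73 with it. The untreated Drp1LiKO array alone thus sets its genotype difference of −1.92 and its palmitate difference of 1.96. Cpt1c, a brain-type carnitine palmitoyltransferase, differed by −1.45 and −0.71. Of the nuclear receptors and their coactivator, 3 of 8 were higher without palmitate and 2 of 8 with it. Ppargc1a, a coactivator of oxidation genes, differed by 1.21 and 1.27 and on its second probe by 2.05 and 1.14. Nr1i3, the receptor CAR, differed by 1.72 and 1.27, and Ppard, a fatty acid receptor of the PPAR family, by 1.04 and 0.79. The untreated control value of Nr1i3, −4.61, lay close to the floor of that array, −4.74. That value also enters the palmitate difference of Nr1i3 in control cells, 1.38. Palmitate and untreated arrays differed 2-fold in Drp1LiKO cells for Lpl (−1.92), Gpihbp1 (−1.21) and Fabp3 (−1.05), but another Lpl probe flagged on all 4 arrays gave 0.52.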
